A study of Homo sapiens with 9 samples.

Results

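Keratinocytes of the immortalized human line HaCaT were compared without treatment, after 24 h with EGF (10 nM) and after 24 h with bleogen pB1 (1 µM), a plant miniprotein that acts on the EGF receptor. Each group had 3 libraries of polyadenylated RNA, all from wild-type cells of this 1 line, grown to confluence and kept in serum-free medium. The measurements below concern 10 genes of the contractile actin cytoskeleton, namely ACTA2, TAGLN, TPM1, TPM2, MYL9, CNN1, CNN2, VCL, FLNA and ACTN1, out of 16199 genes with a count in at least 1 library. They were picked by gene symbol, and a gene without an entry in a library was counted as 0. CNN1 had no entry in any of the 9 libraries, and the other 9 genes had one in every library.

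In smooth muscle and in myofibroblasts, these genes build the thin filaments and stress fibres that let a cell contract. Many of them are targets of serum response factor (SRF), a transcription factor that binds a short DNA element called the CArG box. Its coactivators of the myocardin family, MRTFA and MRTFB, are held in the cytoplasm by monomeric actin and released when actin assembles into filaments. A second group of cofactors, the ternary complex factors ELK1, ELK3 and ELK4, links SRF to ERK signalling downstream of growth factor receptors. Keratinocytes use mainly the non-muscle forms of the same proteins, and the contractile forms are better known from wound myofibroblasts.

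To show how the element lies in these genes, the RefSeq promoter windows of GRCh38.p14 (250 bases before to 50 after each annotated start) were searched for the CArG box, which reads CC, then 6 letters that are each A or T, then GG. The pattern is its own reverse complement, so 1 search covered both strands. Of 35116 windows, 454 (1.293%) held it. Among the 10 genes, 8 had windows, 13 in all, and 3 windows of 3 genes held the box, those of FLNA, CNN2 and ACTN1 (1 of its 4 starts). TAGLN and MYL9 had no entry. The windows are printed 5′ to 3′ on the strand of the gene with the box in capitals, first for the 3 member genes and then for SRF itself, the smoothelin gene SMTN and the cytoplasmic actin gene ACTG1, which recur below.
FLNA (chrX:154374694-154374753, minus strand): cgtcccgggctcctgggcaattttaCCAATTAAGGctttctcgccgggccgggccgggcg
CNN2 (chr19:1026494-1026553, plus strand): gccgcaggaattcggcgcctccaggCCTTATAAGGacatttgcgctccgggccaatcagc
ACTN1 (chr14:68977703-68977762, minus strand): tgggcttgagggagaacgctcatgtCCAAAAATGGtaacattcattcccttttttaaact
SRF (chr6:43171214-43171268, plus strand): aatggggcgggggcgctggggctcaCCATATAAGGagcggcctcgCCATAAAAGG
SMTN (chr22:31084927-31084986, plus strand): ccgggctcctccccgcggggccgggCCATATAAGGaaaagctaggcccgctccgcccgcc
ACTG1 (chr17:81512859-81512918, minus strand): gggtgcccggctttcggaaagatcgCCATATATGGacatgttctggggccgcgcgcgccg
The box began 94 bases before the annotated start in FLNA, 89 in CNN2 and 171 in ACTN1. SRF carried a pair of boxes, 30 and 10 bases before its start. A match describes the letters only, and a window without one says only that these letters are not in it.

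The libraries held between 20288417 and 21320994 expected counts, so that 3 counts corresponded to 0.141 to 0.148 CPM, that is counts scaled to library size. Group means in CPM below use edgeR's TMM factors. No library stood apart in depth. Differences were tested with edgeR's quasi-likelihood test over 12394 genes, with Benjamini-Hochberg adjustment, and a gene was called a DEG at an adjusted p of at most 0.05 and a log2 fold change of at least 0.5 in size. The labels do not say whether the replicates were separate cultures, so the p-values measure the spread between these libraries. With 3 libraries against 3, an exact permutation test cannot give a p under 0.1.

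Levels were compared between genes as FPKM, the deposited value per length and depth. In untreated cells FLNA, the actin cross-linker filamin A, was the most abundant of the 10 genes at 200.0 FPKM ± 8.14 (SD, n = 3). ACTN1, encoding the cross-linker alpha-actinin-1, at 115.0 FPKM ± 4.48 and the calponin gene CNN2 at 114.5 FPKM ± 8.54 came next, and these neighbours did not differ beyond their spread. VCL, encoding the adhesion protein vinculin, stood at 73.2 FPKM ± 0.44. The genes named for muscle contraction were far lower. TPM1 had 26.5 FPKM ± 1.41, TPM2 7.39 FPKM ± 0.22 and ACTA2 3.12 FPKM ± 0.22. MYL9 at 0.79 FPKM ± 0.15 and TAGLN at 0.60 FPKM ± 0.18 overlapped in their libraries, and CNN1 was counted as 0. For CNN1, a count of 0 allows up to 3 counts, or 0.141 to 0.148 CPM, in each library.

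The order from FLNA down to ACTA2 was the same in all 3 groups. In EGF-treated cells ACTN1 (188.0 FPKM ± 5.98) lay above CNN2 (132.9 FPKM ± 5.38) without overlap. In bleogen pB1-treated cells ACTN1 (119.2 FPKM ± 2.56) and CNN2 (109.4 FPKM ± 6.18) also did not overlap, although the gap was small. At the lower end, MYL9 (0.277 FPKM ± 0.090) lay below TAGLN (0.70 FPKM ± 0.25) in EGF-treated cells, whereas MYL9 (1.31 FPKM ± 0.50) and TAGLN (0.817 FPKM ± 0.107) overlapped in bleogen pB1-treated cells.

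**Figure D1:**
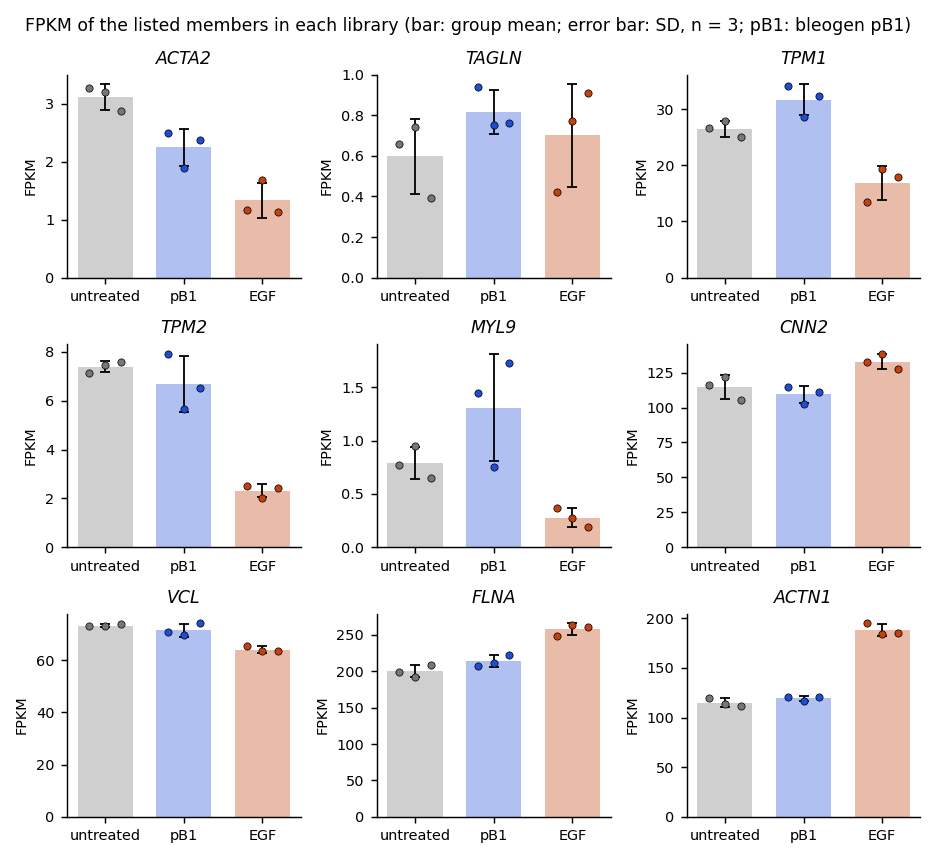
FPKM of the 9 listed genes in each library (points), with the group mean (bar) and SD (error bar, n = 3) for untreated, bleogen pB1-treated (pB1) and EGF-treated cells; each panel has its own axis, which starts at 0. ACTA2, TPM1, TPM2 and MYL9 are lowest in the 3 EGF libraries, ACTN1 and FLNA are highest there, and the TAGLN libraries of EGF-treated and untreated cells overlap.

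EGF split the genes. The thin-filament and motor genes TPM2, MYL9, ACTA2 and TPM1 were downregulated, and the cross-linker gene ACTN1 was upregulated. That makes 5 of 9 tested genes called, where 36.9% of all genes tested were called in this comparison (15.1% upregulated and 21.8% downregulated). MYL9, with 4 to 8 counts in the EGF libraries, passed the count filter through the groups where it is higher, and with at least 10 counts required in every library it was left out and 4 genes were called. Of the 9, 8 did not overlap between the groups, where 70.4% of all genes did not. On an adjusted p alone, 3 were higher and 5 lower, and 66.1% of all genes passed. The median log2 fold change of the 9 was −0.13, beside −0.01 over all genes tested. Fewer cells of a type and less RNA per cell cannot be told apart in these bulk libraries.

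Bleogen pB1 gave a different picture. None of the 9 genes was called, where 1.48% of all genes tested were (0.218% upregulated and 1.26% downregulated), and none passed on the adjusted p alone, where 4.11% did. With edgeR, 1 gene (ACTA2) had an unadjusted p under 0.05, and DESeq2 also called 0. ACTA2 and TAGLN, 2 of the 9, did not overlap between bleogen pB1-treated and untreated cells, where 29.1% of all genes did not. The median log2 fold change of the 9 was 0.03, beside −0.00 over all genes.

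Compared directly at these unequal doses, EGF-treated cells differed from bleogen pB1-treated cells in 5 of the 9 genes, 1 higher and 4 lower, where 28.8% of all genes were called (10.8% higher and 18.0% lower). These were the genes called between EGF-treated and untreated cells, and both comparisons share the EGF libraries. MYL9 is among the 4 lower ones and passed the count filter through the groups where it is higher. On the adjusted p alone 7 passed, where 58.2% of all genes did, and 7 did not overlap between these groups, where 62.4% of all genes did not.

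**Figure D2:**
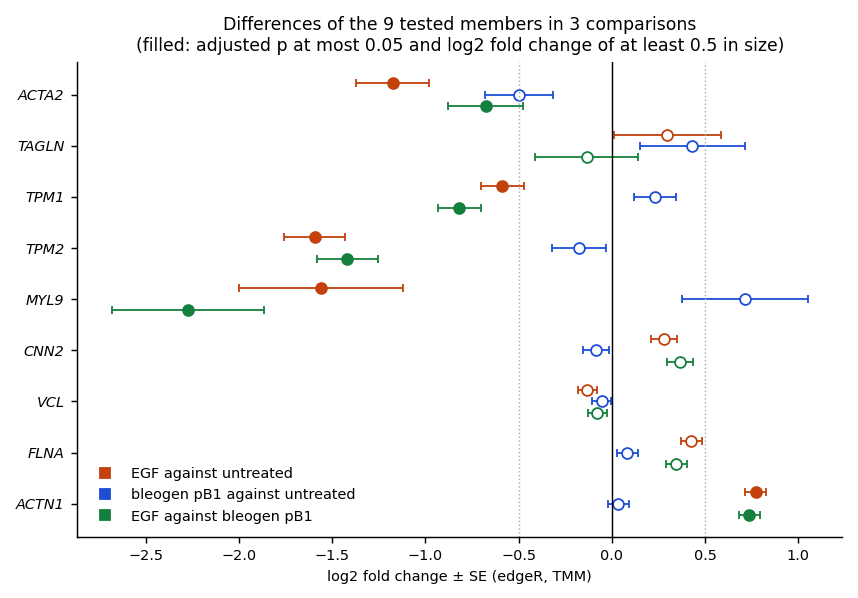
Log2 fold change with its SE (edgeR, TMM scaling) of the 9 tested genes for EGF against untreated, bleogen pB1 against untreated and EGF against bleogen pB1; filled points passed both limits and dotted lines mark a log2 fold change of 0.5 in size. ACTA2, TPM1, TPM2 and MYL9 are filled on the left and ACTN1 on the right in both comparisons with EGF, and no point of the comparison of bleogen pB1 with untreated cells is filled.

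ACTA2 encodes smooth muscle alpha-actin, the actin that marks myofibroblasts. Its expected counts were 116, 113 and 102 without treatment, 89, 67 and 85 with bleogen pB1 and 41, 60 and 42 with EGF. The 3 groups did not overlap, with the bleogen pB1 libraries between the others. From 5.34 CPM ± 0.40 in untreated cells it fell to 2.36 CPM ± 0.57 with EGF, which is −1.17 ± 0.20 (SE) in log2 fold change at an adjusted p of 0.00017 in edgeR. With bleogen pB1 it stood at 3.78 CPM ± 0.60, and the log2 difference of −0.50 ± 0.18 did not pass (adjusted p = 0.14 in edgeR, 95% interval −0.90 to −0.10). EGF-treated cells had less ACTA2 than bleogen pB1-treated cells by a log2 fold change of −0.68 ± 0.20 (adjusted p = 0.011 in edgeR). Without EGF replicate 3 the latter was −0.57 with an adjusted p of 0.056, in a range of 0.0027 to 0.056 over the alternative fits.

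ACTA2 lies at chr10:88935074-88991339 on the minus strand (GENCODE on GRCh38, as for the positions below), and 387 of its exonic bases are shared with FAS and 1638 with ACTA2-AS1 on the other strand. On its own strand it shares 401 with the lncRNA gene ENSG00000286116. Whether the counting used the strand is not given in the sources used here. FAS was higher with EGF at a log2 fold change of 0.31 ± 0.10 (adjusted p = 0.015 in edgeR), in the direction opposite to ACTA2.

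Tropomyosins wind along the actin filament and set which motors and binding proteins reach it. TPM2 (chr9:35681992-35690056, minus strand) had 164, 171 and 175 expected counts without treatment, 182, 132 and 150 with bleogen pB1 and 59, 47 and 59 with EGF. The EGF libraries were lower than all 6 others, and the bleogen pB1 libraries lay on both sides of the untreated ones. The fall with EGF, from 8.22 CPM ± 0.27 to 2.72 CPM ± 0.31, was a 3.02-fold difference (log2 −1.59 ± 0.16, adjusted p = 2.9e-06 in edgeR). Bleogen pB1 gave 7.28 CPM ± 1.30, a log2 difference of −0.18 ± 0.14 (adjusted p = 0.51 in edgeR, 95% interval −0.49 to 0.14). The log2 difference between EGF and bleogen pB1 was −1.42 ± 0.16 (adjusted p = 1.2e-05 in edgeR).

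TPM1 (chr15:63042620-63071915, plus strand), the other tropomyosin gene of muscle type, had 947, 980 and 888 expected counts without treatment, 1207, 1037 and 1152 with bleogen pB1 and 484, 683 and 664 with EGF. EGF replicate 1 was the lowest library, and all 3 EGF libraries lay below the other 6. TPM1 fell with EGF from 45.4 CPM ± 2.87 to 30.2 CPM ± 5.33, a log2 change of −0.59 ± 0.12 with an adjusted p of 0.00057 in edgeR. Without EGF replicate 1 the change was −0.45, under the fold limit of 0.5. With bleogen pB1 it was at 53.2 CPM ± 4.81, and the log2 difference of 0.23 ± 0.11 did not pass (adjusted p = 0.25 in edgeR). On TMM-scaled CPM, replicate 2 of the bleogen pB1 group lay just under the highest untreated library, 48.12 beside 48.14. Relative to bleogen pB1-treated cells, EGF-treated cells were lower by a log2 fold change of −0.82 ± 0.11 (adjusted p = 6.1e-05 in edgeR). TPM1 shares 2645 of its 14700 annotated exonic bases with TPM1-AS on the opposite strand.

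MYL9 (chr20:36541497-36551447, plus strand) encodes a regulatory light chain of myosin II, whose phosphorylation switches the motor on. It was sparse, with 18, 22 and 15 expected counts without treatment, 34, 18 and 41 with bleogen pB1 and 8, 6 and 4 with EGF. The EGF libraries were lowest throughout, and replicate 2 of the bleogen pB1 group lay within the untreated range. The log2 fold change with EGF was −1.56 ± 0.44 (adjusted p = 0.0071 in edgeR, 95% interval −2.51 to −0.61). With bleogen pB1 it was 0.71 ± 0.34, with an interval from −0.01 to 1.44 and an adjusted p of 0.23 in edgeR. EGF against bleogen pB1 gave −2.27 ± 0.41 (adjusted p = 0.00042 in edgeR). In both comparisons with EGF, MYL9 passed the count filter through the groups where it is higher. Its reads are close in sequence to those of MYL12A and MYL12B, so the split between these genes is uncertain. The gene length deposited for MYL9 averaged 1208 bases without treatment and 1105 with EGF, which enters its FPKM but not its counts.

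Transgelin, the product of TAGLN, binds and gels actin filaments and is a classical SRF target. TAGLN (chr11:117199370-117207464, plus strand) had 51.8, 56.7 and 32.2 expected counts without treatment, 74.2, 61.0 and 60.6 with bleogen pB1 and 33.8, 61.0 and 74.9 with EGF. The EGF libraries spanned from near the lowest untreated library to above the highest bleogen pB1 library. No difference was called, with log2 values of 0.30 ± 0.29 for EGF (adjusted p = 0.38), 0.43 ± 0.28 for bleogen pB1 (adjusted p = 0.40) and −0.13 ± 0.28 between the treatments (adjusted p = 0.70), all in edgeR. The interval for EGF ran from −0.32 to 0.92. TAGLN shares 2233 of its 6550 exonic bases with PCSK7 on the opposite strand, and PCSK7 was higher with EGF by a log2 fold change of 0.34 ± 0.07 (adjusted p = 0.00066 in edgeR). It also shares 2498 with ENSG00000280143 on the same strand. The part of these shared bases in the TAGLN counts was not tested.

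Calponins bind actin and slow the myosin motor. CNN1, the form of differentiated smooth muscle, is annotated at chr19:11538767-11550323 and had no count in the 9 libraries, as described. CNN2 (chr19:1026586-1039068, plus strand) had 5797, 6021 and 5265 expected counts without treatment, 5722, 5238 and 5611 with bleogen pB1 and 6705, 6917 and 6674 with EGF. All EGF libraries lay above the others, and the remaining groups overlapped. CNN2 was 1.22-fold higher with EGF (log2 0.28 ± 0.07, adjusted p = 0.0030 in edgeR), under the fold limit, and differed by −0.09 ± 0.07 with bleogen pB1 (adjusted p = 0.50 in edgeR). Between the treatments it was 0.37 ± 0.07 higher with EGF in log2 (adjusted p = 0.00063 in edgeR).

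The remaining 3 genes tie filaments to one another or to adhesions. ACTN1 (chr14:68874128-68979440, minus strand) had 9054, 8497 and 8424 expected counts without treatment, 9125, 8993 and 9239 with bleogen pB1 and 14886, 13881 and 14560 with EGF. The EGF libraries were far above the other 6, which overlapped. ACTN1 rose with EGF from 418.7 CPM ± 17.1 to 714.6 CPM ± 25.5, or 1.71-fold (log2 0.77 ± 0.06, adjusted p = 1.6e-07 in edgeR). With bleogen pB1 the log2 difference was 0.03 ± 0.06 (adjusted p = 0.76 in edgeR), with a 95% interval of −0.09 to 0.15. Against bleogen pB1, EGF gave 0.74 ± 0.06 in log2 fold change (adjusted p = 3.2e-07 in edgeR).

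FLNA (chrX:154348524-154374634, minus strand) had 34679, 33173 and 36500 expected counts without treatment, 36373, 37779 and 39469 with bleogen pB1 and 43885, 45832 and 47363 with EGF. Again the EGF libraries stood above all others. The gene was 1.34-fold higher with EGF (log2 0.43 ± 0.06, adjusted p = 2.8e-05 in edgeR), under the fold limit, and the log2 difference with bleogen pB1 was 0.08 ± 0.06 (adjusted p = 0.43 in edgeR). Between the treatments it was 0.35 ± 0.06 higher with EGF on the log2 scale (adjusted p = 0.00023 in edgeR).

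VCL (chr10:73995193-74121363, plus strand) had 8060, 7965 and 8171 expected counts without treatment, 7819, 7864 and 8302 with bleogen pB1 and 7322, 6970 and 7284 with EGF. It varied little, and its EGF libraries lay just below the rest on expected counts. On TMM-scaled CPM, EGF replicate 1 (366.0) lay just above bleogen pB1 replicate 2 (364.9), so that these groups overlapped. The log2 difference with EGF was −0.13 ± 0.05 (adjusted p = 0.036 in edgeR), and over the alternative fits the adjusted p ran from 0.0012 to 0.13, so that this small difference did not pass in each of them. With bleogen pB1 it was −0.05 ± 0.05 (adjusted p = 0.57 in edgeR), and −0.08 ± 0.05 between EGF and bleogen pB1 (adjusted p = 0.21 in edgeR). VCL shares 1109 exonic bases with AP3M1 on the opposite strand, whose log2 difference with EGF was −0.08 ± 0.06 (adjusted p = 0.31 in edgeR).

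Most of these genes belong to a family of related genes, and the share each takes was followed by summing the FPKM of the family. Paralogous reads can be split unevenly in counting, so these shares are uncertain where sequences are close. ACTA2 took 0.0860% ± 0.0057 of the actin FPKM in untreated cells, 0.0510% ± 0.0090 with bleogen pB1 and 0.0270% ± 0.0065 with EGF (n = 3, exact permutation p = 0.1 for each pair). The total actin FPKM moved the other way, from 3630 ± 178 without treatment to 4439 ± 168 with bleogen pB1 and 4937 ± 107 with EGF. ACTB averaged 2521 FPKM without treatment, 3092 with bleogen pB1 and 3808 with EGF, and ACTG1 1106, 1345 and 1127 FPKM. ACTB, the main cytoplasmic actin, rose with EGF by a log2 fold change of 0.66 ± 0.07 (adjusted p = 2.4e-06 in edgeR). With bleogen pB1 ACTB (0.27 ± 0.07, adjusted p = 0.039) and ACTG1 (0.26 ± 0.06, adjusted p = 0.027) passed edgeR's adjusted p but not the fold limit.

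The tropomyosin pool also shifted. TPM1 and TPM2 together made up 7.50% ± 0.22 of tropomyosin FPKM without treatment, 7.48% ± 0.85 with bleogen pB1 and 3.64% ± 0.69 with EGF. The EGF libraries did not overlap with the untreated ones (n = 3, exact permutation p = 0.1). With bleogen pB1, TPM2 alone took 1.31% ± 0.24 beside 1.63% ± 0.06 in untreated cells, without overlap (n = 3, exact permutation p = 0.1). TPM1 alone took 6.18% ± 0.62 beside 5.86% ± 0.24, and these overlapped. The total was 452 ± 5.38 FPKM in untreated, 513.1 ± 7.27 FPKM in bleogen pB1-treated and 530.8 ± 25.9 FPKM in EGF-treated cells. TPM3 and TPM4, the forms most used outside muscle, had log2 fold changes with EGF of 0.45 ± 0.06 and 0.26 ± 0.05 (adjusted p = 5.5e-05 and 0.00066 in edgeR), under the fold limit. MYL9 gave 0.142% ± 0.022 of the regulatory light chain FPKM without treatment, 0.249% ± 0.094 with bleogen pB1 and 0.0564% ± 0.0194 with EGF. Only the last stood apart from the untreated libraries.

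In the alpha-actinins and calponins the balance moved the other way, towards the members studied here. ACTN1 took 45.2% ± 0.75 of its pair with ACTN4 in untreated and 55.0% ± 0.21 in EGF-treated cells, and CNN2 went from 62.2% ± 0.51 to 72.5% ± 0.34 of the calponins (n = 3, exact permutation p = 0.1 for each). The calponin total was 184.0 ± 12.5 FPKM in untreated and 183.3 ± 6.57 FPKM in EGF-treated cells. CNN3 averaged 69.4 FPKM without treatment and 50.4 FPKM with EGF. TAGLN was 0.156% ± 0.046 of the transgelins in untreated and 0.190% ± 0.079 in EGF-treated cells, and these overlapped. TAGLN2 was nearly all of that family, and TAGLN3, a neuronal form, had 18, 21 and 20 counts with EGF beside 2, 0 and 0 in untreated and 0, 0 and 2 in bleogen pB1-treated cells.

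**Figure D3:**
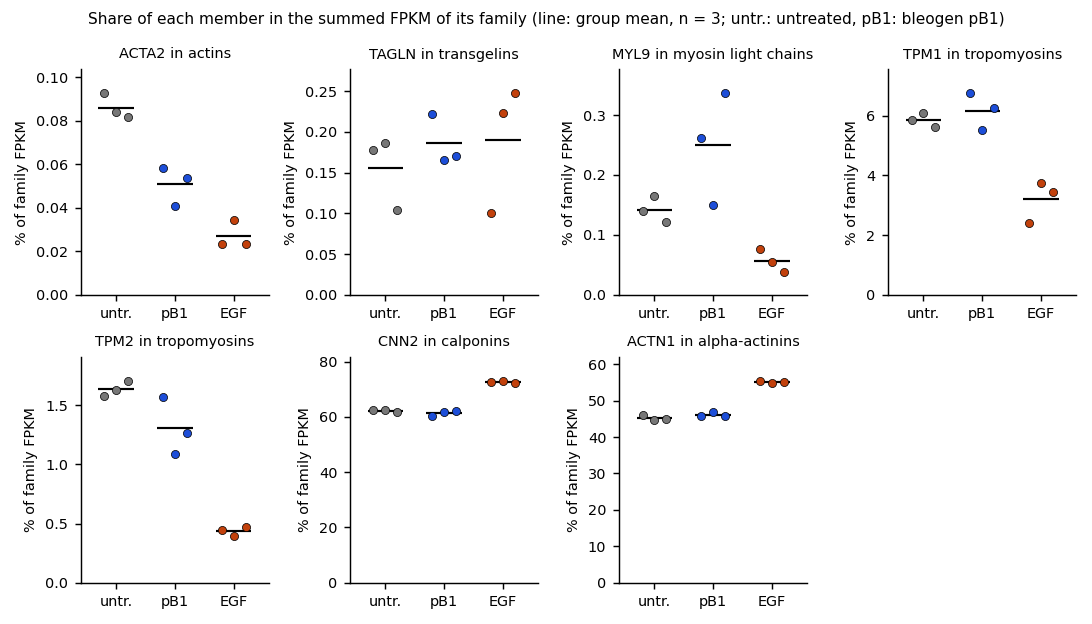
Share of each gene shown in the summed FPKM of its protein family, in percent, for each library (points) and as the group mean (line, n = 3); untr. is untreated and pB1 is bleogen pB1. The shares of ACTA2, MYL9, TPM1 and TPM2 are lowest in the EGF libraries, those of ACTN1 and CNN2 are highest there, and TAGLN overlaps.

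Of the SRF pathway, only the RNA levels of SRF and its cofactors were measured, and the activity of these proteins was not. The MRTF genes fell with EGF. MRTFA, listed under its older symbol MKL1, went from 1399, 1425 and 1351 to 833, 904 and 845 expected counts, which is −0.66 ± 0.09 in log2 fold change (adjusted p of 2.4e-05 in edgeR). MRTFB, listed as MKL2, went from 1439, 1397 and 1605 to 1097, 954 and 983, or −0.52 ± 0.07 (adjusted p = 4.3e-05 in edgeR). Neither pair of groups overlapped. SRF was higher with EGF, at 2622, 2746 and 2559 against 2060, 2081 and 2000 counts (log2 0.40 ± 0.06, adjusted p = 6.0e-05 in edgeR), under the fold limit.

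Of the ternary complex factors, ELK3 rose with EGF by a log2 fold change of 0.73 ± 0.07 (adjusted p = 2.3e-06 in edgeR). ELK1 was at 0.19 ± 0.07 (adjusted p = 0.028) and ELK4 at 0.12 ± 0.06 (adjusted p = 0.094) in edgeR. In all, EGF upregulated 1 and downregulated 2 of the 6 tested genes of the list, with a median of 0.15. The shares over all genes tested were 15.1% and 21.8%. MYOCD, the muscle-specific coactivator, had no entry in any library. Bleogen pB1 called 0 of the 6, their median was 0.02, and the widest difference, that of MRTFA, was −0.14 ± 0.08 (adjusted p = 0.34 in edgeR). With edgeR, 0 of these 6 also had an unadjusted p under 0.05 with bleogen pB1, and DESeq2 called 0.

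Of 22 tested genes of stress fibres and focal adhesions, EGF upregulated 4 and downregulated 4. Over all genes tested, 15.1% were upregulated and 21.8% downregulated. The median log2 fold change of the 22 was −0.23. On edgeR's adjusted p alone, which 66.1% of all genes tested passed, 13 were lower, and SMTN and 4 others were higher. SMTN, encoding the smooth muscle protein smoothelin, rose most, from 275, 254 and 337 to 1090, 1125 and 1107 expected counts (log2 1.97 ± 0.10, adjusted p = 6.4e-09 in edgeR). FHL2, a LIM protein that binds SRF, followed with a log2 fold change of 0.87 ± 0.10 (adjusted p = 7.4e-06 in edgeR). MYH14, a non-muscle myosin II heavy chain, fell to a log2 value of −1.30 ± 0.15 against untreated cells (adjusted p = 8.5e-06 in edgeR) and CALD1, encoding caldesmon, to −0.61 ± 0.08 (adjusted p = 2.0e-05). Of 11 tested paralogues of the 10 genes, EGF upregulated 3 and downregulated 0, and DESeq2 also called 0 lower. Their median was 0.20, and the shares over all genes tested were again 15.1% and 21.8%. On edgeR's adjusted p alone, 6 paralogues were higher and 1 lower, beside the same 66.1% of all genes. The lower one was CNN3 (log2 −0.40 ± 0.07, adjusted p = 0.00036 in edgeR), under the fold limit. Among the upregulated paralogues, TAGLN3 passed the count filter only through the EGF libraries.

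With bleogen pB1, edgeR and DESeq2 called 0 genes of these 2 lists, whose medians were −0.09 and −0.02. Over all genes tested, edgeR called 1.48%. In edgeR 7 and 6 genes of the lists had an unadjusted p under 0.05, with no share over all genes given. On edgeR's adjusted p alone 5 of them passed, and 4.11% of all genes did. SMTN, at a log2 fold change of 0.45 ± 0.10 (adjusted p = 0.032), ACTB and ACTG1 were higher. TLN1, encoding the adhesion protein talin-1, at −0.33 ± 0.07 (adjusted p = 0.019 in edgeR) and LPP at −0.28 ± 0.07 (adjusted p = 0.0495 in edgeR) were lower.

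**Figure D4:**
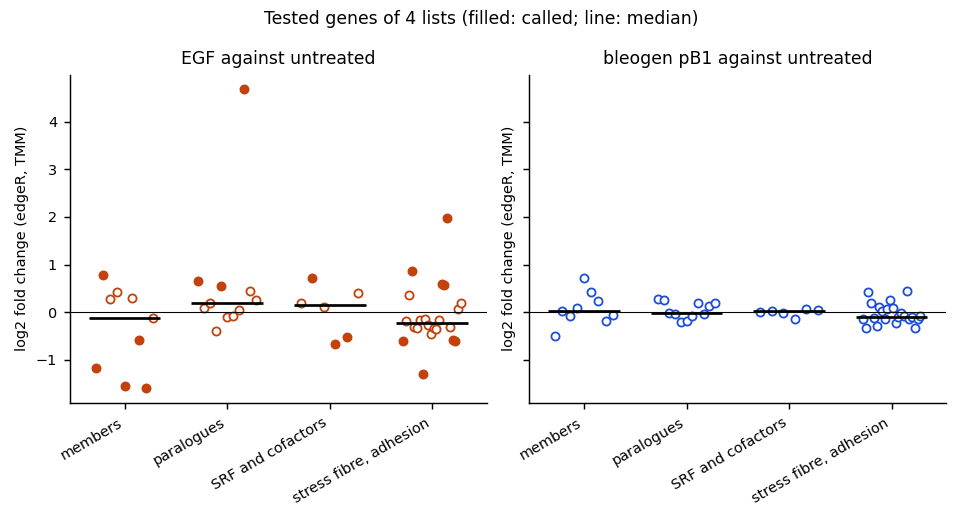
Log2 fold change (edgeR, TMM scaling) of every tested gene of 4 lists (points; filled when called; line, median) for EGF and for bleogen pB1 against untreated cells. With EGF each list has filled points, 5 of 9 for the 10 genes studied here, and the topmost point is TAGLN3, whose fitted value rests on 2 counts in untreated cells; with bleogen pB1 no point is filled.

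The box printed above can be set beside these values. In the members and the 3 other lists of the plot of fold changes by list, 16 genes had a box and 12 of these were tested. With EGF, 7 of the 12 were higher and 4 lower on edgeR's adjusted p, which 66.1% of all genes tested passed. With the fold limit 3 were upregulated and 1 downregulated. The higher ones were the members FLNA, CNN2 and ACTN1 (log2 0.43, 0.28 and 0.77) together with SMTN (1.97), FHL2 (0.87), SRF (0.40) and TPM4 (0.26). TGFB1I1, a paxillin-like LIM protein gene, was downregulated at −0.57 (adjusted p = 0.0020 in edgeR), and MYLK (−0.45), LPP (−0.33) and TES (−0.32) were lower on the adjusted p alone. ACTG1 was at 0.09 ± 0.06 (adjusted p = 0.16 in edgeR). ACTA2, TPM1 and TPM2, which fell with EGF, and VCL (−0.13) had windows without this exact pattern. Elements that depart from it by a letter, or that lie outside these windows, were not searched. Over all 10169 tested genes with a window, 163 had a box, of which EGF upregulated 14.7% and downregulated 19.6%, beside 15.0% and 21.2% of those without.

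The cell type of the label was checked against markers. The 10 keratinocyte markers summed to 5979 to 6561 FPKM without treatment, 5989 to 6926 with bleogen pB1 and 5427 to 5476 with EGF. All 10 were tested. KRT5, the basal keratin, led the list without treatment and with bleogen pB1 (3506 and 3286 FPKM). With EGF, KRT14 led at 1772 FPKM, beside 1547 FPKM for KRT5. EGF upregulated 3 of the 10, where 15.1% of all genes tested were upregulated, and downregulated 2, where 21.8% were. KRT14 (log2 0.88 ± 0.07, adjusted p = 3.0e-07 in edgeR) and LAMB3, a laminin chain gene (0.65 ± 0.09, adjusted p = 4.5e-05 in edgeR), rose most. The 2 downregulated genes were KRT5 (−1.12 ± 0.08, adjusted p = 1.7e-07 in edgeR) and the E-cadherin gene CDH1 (−0.66 ± 0.07, adjusted p = 3.1e-06 in edgeR). The sums with EGF were thus the lowest, and their part in the results for the 10 genes was not tested. Bleogen pB1 called 0 (6 with an unadjusted p under 0.05 in edgeR, 0 called in DESeq2). On edgeR's adjusted p alone KRT14 (log2 0.48 ± 0.07, adjusted p = 0.0017) and PKP1 (0.25 ± 0.05, adjusted p = 0.019) were higher. The share of all genes passing that limit was 4.11%. The 10 fibroblast markers summed to 1.47 to 1.87 FPKM without treatment, 1.16 to 1.85 with bleogen pB1 and 0.26 to 0.36 with EGF. Of these, 3 were tested, and bleogen pB1 called 0 of them (0 with an unadjusted p under 0.05 in edgeR, 0 called in DESeq2). The leading one, the collagen gene COL3A1, fell with EGF from 93, 107 and 102 to 12, 14 and 11 expected counts (log2 −2.98 ± 0.26, adjusted p = 8.7e-07 in edgeR). COL1A1, another collagen gene, fell from 57, 54 and 73 to 27, 15 and 14 (log2 −1.67 ± 0.26, adjusted p = 0.00011 in edgeR). The fibroblast proteoglycan gene DCN had 6, 22 and 12 counts beside 0, 0 and 1, and was tested only through the groups where it is higher. The summed level of this list thus moved with ACTA2, TPM1, TPM2 and MYL9 under EGF, and its part in their fall was not tested. PDGFRA, POSTN, THY1 and COL1A2 were at 0 in 8 of the 9 libraries.

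The 10 smooth muscle and pericyte markers summed to 4.25 to 5.47 FPKM without treatment, 5.90 to 6.96 with bleogen pB1 and 16.2 to 17.2 with EGF, and SMTN, also counted among the stress fibre genes, made up nearly all of it. MYOCD and KCNMB1 were at 0 in every library, and the smooth muscle myosin gene MYH11 stayed at 0.02 to 0.06 FPKM. DES, encoding the muscle filament desmin, had at most 1 count in a library. Of the 3 tested markers, EGF upregulated SMTN and called no other. RGS5 was at −0.53 ± 0.24 in log2 fold change (adjusted p = 0.068 in edgeR) with EGF. CSPG4 was at −0.58 ± 0.39 (adjusted p = 0.20 in edgeR), and the median of the 3 was −0.53.

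**Figure D5:**
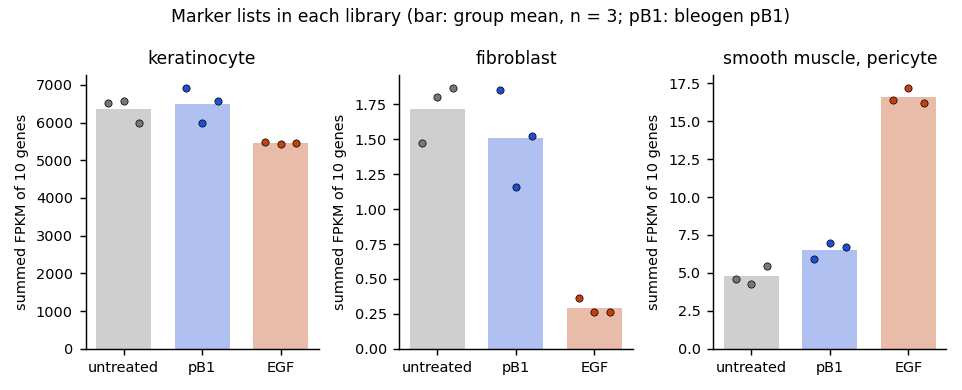
Summed FPKM of 10 marker genes each of keratinocytes, fibroblasts, and smooth muscle cells or pericytes, in each library (points) and as the group mean (bar, n = 3; pB1 is bleogen pB1); axes start at 0 and differ in scale. The keratinocyte sums are at least 5427 and lowest with EGF, the fibroblast sums are at most 1.87 and lowest with EGF, and the smooth muscle sums are highest with EGF through SMTN.

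Finally, the genes most like ACTA2 across the 9 libraries were sought by the root mean square distance of their centred log2 CPM. The closest were LGR6 (distance 0.092), HLA-E (0.103), MR1 (0.108), HYAL1 (0.120) and CCDC92 (0.120). LGR6, a receptor of the R-spondin pathway, had log2 fold changes of −1.15 with EGF and −0.32 with bleogen pB1, and HLA-E, a non-classical MHC class I gene, −1.14 and −0.45. None of the other members was among the close ones. TPM1 ranked 1599, TPM2 2299, VCL 4159 and MYL9 8443, and ACTN1, which moved the other way, ranked 11252.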

How the data were processed

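RNA of 9 HaCaT libraries (3 untreated, 3 EGF, 3 bleogen pB1) was sequenced by BGI. The labels name the RNeasy kit and DNBSEQ, the paper PureLink and BGISEQ. The authors had reads mapped to GRCh38.p12 (build also in the submitters' processing notes) and deposited, per gene and library, an expected count (an estimate, not scaled for depth), the gene length and the FPKM, scaled for length and depth. The counting program and its use of strand are not given in the sources used here.

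Rounded expected counts went through the quasi-likelihood test of edgeR 4.0.16 (R 4.3.3) with filterByExpr (12394 genes), TMM factors of 0.964 to 1.02 and Benjamini-Hochberg adjustment. A single fit held all 9 libraries and left 6 degrees of freedom. The SE was obtained as the size of the log2 fold change over the root of F. The floor of 3 counts covers counting error only. FPKM served for levels and family shares (exact permutation tests, two-sided, Python 3.11.15). Alternatives were DESeq2 1.42.0, limma 3.58.1 on log2(FPKM + 1 or 0.1), other scaling, filters and fold limits, each library left out and the replicate block. Scripts were tested on simulated data. Members and lists were chosen with earlier results of these data known. Text names the 10 members, all SRF cofactors, the 2 most changed DEGs per direction of each other list, the 5 genes nearest ACTA2 and markers at 0 or leading their list, and 1 list and 1 gene that this rule covers are not reported here. Other genes named (paralogues within families, overlapping genes, further markers, CArG-box carriers) were chosen after their values were seen. Gene positions are from GENCODE release 44.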

Additional observations from a re-analysis of the deposited data

How the results depend on the processing

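The count of 5 members called for EGF against untreated, 0 for bleogen pB1 against untreated and 5 for EGF against bleogen pB1 held, within 1.5 times, under DESeq2, other scaling, other count filters and fits of only the libraries compared. Leaving out each library gave 4 to 5, 0 to 0 and 4 to 5. For EGF against untreated the count was 8 on the adjusted p alone and 3 at a log2 fold change of at least 1. For EGF against bleogen pB1 it was 2 at that limit and 3 with limma on log2(FPKM + 1) and the FPKM filter, which leaves out MYL9 and where ACTA2 was at −0.48, as without the filter. MYL9 for EGF against untreated was −0.49 with limma on log2(FPKM + 1) without filter, since the pseudocount shrinks low genes. No member value that was called reversed its sign. Over all genes, 183 were called for bleogen pB1 against untreated, beside 99 with limma on log2(FPKM + 1) without filter, 436 without bleogen pB1 replicate 1, 109 without its replicate 2 and 102 without its replicate 3 or without untreated replicate 1. The members called stayed at 0 in each. At a log2 fold change of at least 1, all genes called numbered 1892 (of 4578) for EGF, 31 for bleogen pB1 and 1458 (of 3564) between the treatments. Upper-quartile scaling moved the median log2 fold change of all genes for EGF against untreated to −0.12 from −0.01 and the upregulated share of DEGs to 30.2% from 41.0%.

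Libraries with the same number did not all deviate together (correlations of 0.0039 to 0.0449 for EGF and untreated, −0.0304 to 0.207 for bleogen pB1 and untreated). The replicate block gave 5, 0 and 5 members called. MYL9 rests on 4 to 41 and TAGLN on 32.2 to 74.9 counts per library.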
